A study of Rattus norvegicus with 18 samples.

Results

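Pou5f1, Nanog, Sox2, Sall4, Utf1 and Lin28a are 6 genes whose products hold cells in the pluripotent state, in which a cell can still form every tissue of the body. They were picked out by gene symbol from a table of 32545 genes measured in 18 libraries of rat germ cells and epiblast. Each symbol had 1 line, and all 6 passed the filter on low values that left 14865 genes for testing. Primordial germ cells (PGC), from which eggs and sperm derive, gave 12 libraries. These were 2 each at embryonic day (E) 9.5, E10.5, E11.5 and E12.5, of unlabelled sex, and 2 female and 2 male libraries at E15.5. The epiblast, the layer that forms the embryo proper and its germ line, gave 6 libraries, 3 at E7.25 and 3 at E7.75, with 1 female and 2 male on each day. All came from the Crlj:WI strain, and every group, epiblast included, has the genotype Prdm14-Venus, a fluorescent reporter of the germ cell regulator Prdm14. The labels do not say how cells were isolated or whether embryos were pooled, nor do they state that replicates are different animals, and the p-values below therefore measure only how far these libraries differ, which may be technical.

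In the mouse, OCT4 (the product of Pou5f1, a POU-domain factor) and SOX2 (an HMG-box factor) bind DNA side by side and switch on pluripotency genes, among them their own genes and Nanog, which encodes a homeodomain factor. SALL4 is a zinc finger protein that works with OCT4 and recruits histone deacetylases. UTF1 is a chromatin-bound protein of undifferentiated cells and a target of OCT4 and SOX2. LIN28A binds precursors of the let-7 microRNAs and blocks their maturation. Mouse germ cells keep or regain much of this network after they leave the epiblast. They give it up in the gonad, early in females as they enter meiosis and later in males as they stop dividing.

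The promoters of Nanog, Sox2, Utf1 and Lin28a are shown because the first 3 genes were high in germ cells at E10.5 while Lin28a was at its lowest there. Each line is the 250 bases before the transcription start in RefSeq's GRCr8 assembly, in the gene's own direction. Of the 6 genes, 4 were in the promoter table, and Pou5f1 and Sall4 were not. The Nanog stretch lies at chr4:157615437-157615686 (plus strand), Sox2 at chr2:119464881-119465130 (plus), Utf1 at chr1:204169704-204169953 (plus) and Lin28a at chr5:151527885-151528134 (minus). Capitals mark matches, on either strand, to a POU element (ATGCAAA), a SOX element (CATTGT) or both.
Nanog: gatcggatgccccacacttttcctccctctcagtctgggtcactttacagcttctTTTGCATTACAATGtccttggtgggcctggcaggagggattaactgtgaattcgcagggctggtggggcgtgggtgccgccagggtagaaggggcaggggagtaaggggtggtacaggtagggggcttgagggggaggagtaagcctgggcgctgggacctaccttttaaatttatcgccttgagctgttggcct
Sox2: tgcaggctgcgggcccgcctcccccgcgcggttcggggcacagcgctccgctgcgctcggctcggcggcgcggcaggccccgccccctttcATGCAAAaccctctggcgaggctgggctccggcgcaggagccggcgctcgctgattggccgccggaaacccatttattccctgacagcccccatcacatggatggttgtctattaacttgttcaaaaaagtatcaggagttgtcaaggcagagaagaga
Utf1: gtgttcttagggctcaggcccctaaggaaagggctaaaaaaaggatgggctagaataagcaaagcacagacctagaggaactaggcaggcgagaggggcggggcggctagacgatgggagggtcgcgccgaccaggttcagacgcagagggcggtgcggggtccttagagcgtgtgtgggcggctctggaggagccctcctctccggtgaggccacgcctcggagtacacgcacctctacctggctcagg
Lin28a: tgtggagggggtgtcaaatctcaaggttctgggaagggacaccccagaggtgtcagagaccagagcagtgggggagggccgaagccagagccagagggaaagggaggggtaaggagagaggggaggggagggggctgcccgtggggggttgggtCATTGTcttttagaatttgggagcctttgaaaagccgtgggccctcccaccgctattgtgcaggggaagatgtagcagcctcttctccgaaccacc
In Nanog the elements lie next to each other with 1 base between them, which forms the composite site read on the minus strand, at bases -195 to -182 from the start. Sox2 had 1 POU element at -159 to -153, Lin28a had 1 SOX element at -96 to -91, and Utf1 had 0 matches. Across 33469 promoters of the same length, a POU element occurred in 4.08%, a SOX element in 11.1% and the composite in 2 promoters, Nanog included, or 0.00598%. Only these exact letters within the 250 bases were searched. The 0 matches in Utf1 therefore say nothing of sites spelled otherwise or lying elsewhere, and the rarity of the composite holds only for this exact spelling. A match is only a match of letters, and binding was not measured here.

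Values are RPKM, reads scaled by gene length and by library depth, so that levels of different genes can be set side by side. Library depth, estimated from the commonest ratio of low values, lay between 82.6% and 121% of the female E7.75 epiblast library in 14 libraries. By this estimate both E10.5 and both E11.5 libraries were shallower, at 20.7% to 22.9% of it, and are less precise for low genes. The estimate rests on few genes, 45 to 82 of the 8297 to 9142 compared in these libraries. Tested genes listed at 0 made up 21.3% and 21.6% at E10.5. At E11.5 they made up 14.4% and 15.0%, within the 8.29% to 15.4% of the other libraries. The labelled cell types were checked against their markers. Summed over 10 germ cell genes, PGC libraries reached 427 to 1971 RPKM and epiblast libraries 21.5 to 46.6 RPKM, whereas the 7 primed epiblast genes in the table summed to 16.3 to 319 RPKM in PGC and 1658 to 2616 RPKM in epiblast, led by Dnmt3b. Fgf5, a defining gene of that list, was listed at 0 in every library, epiblast included. The E9.5 libraries also had high levels of markers of other cells. Their 12 mesoderm and mesenchyme genes summed to 488 and 498 RPKM, against 55.8 to 64.3 RPKM at E10.5, with Mixl1 alone listed at 0. Of 10 blood and endothelial genes, Gata1 and Ptprc were listed at 0 at E9.5, and the list summed to 96.1 to 194 RPKM, against 1.19 to 3.54 RPKM at E10.5. The 11 endoderm and gut genes summed to 356.5 to 449 RPKM at E9.5, with Afp listed at 0, against 42.0 to 47.5 RPKM at E10.5. The 7 extraembryonic ectoderm genes, which share Hand1 and Cdx2 with those lists, summed to 287 to 336 RPKM at E9.5, against 38.7 to 61.3 RPKM at E10.5.

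**Figure D1:**
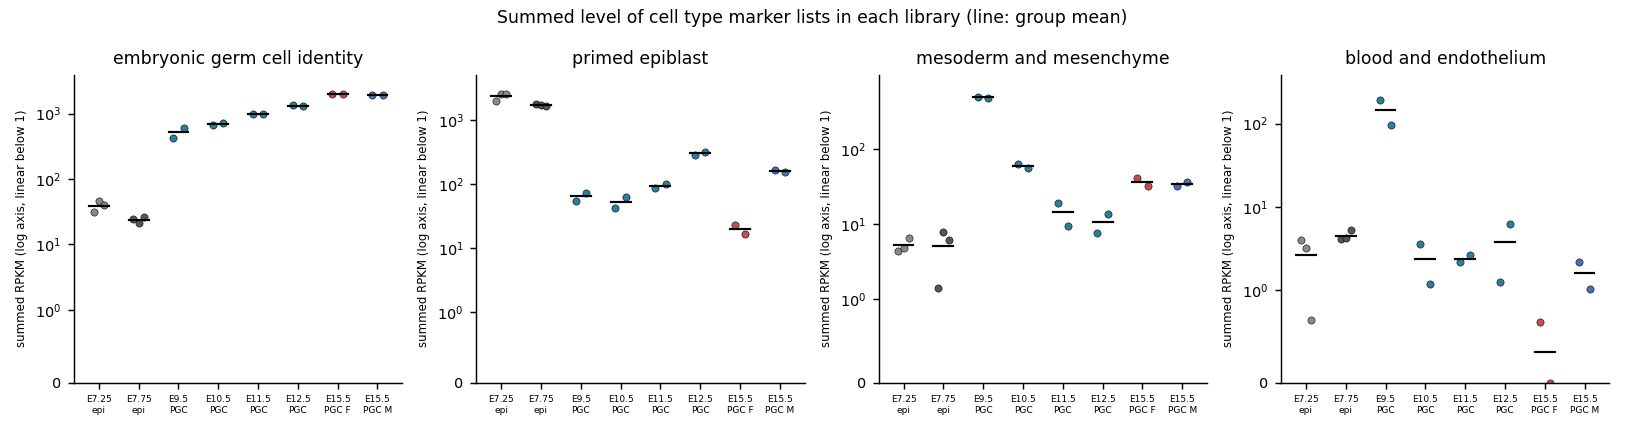
Summed RPKM (log axis, linear below 1) of 4 marker lists in each library, by group, with F for female and M for male PGC at E15.5; points are libraries and lines group means. Mesoderm, blood and endothelial markers stand highest in the E9.5 germ cell libraries, at 488 and 498 and at 96.1 to 194 RPKM.

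PGC as a whole differed from epiblast in all 6 genes, with 2 higher and 4 lower, where 58.5% of all tested genes passed the same test. Nanog and Sox2 were higher in PGC, Lin28a and Pou5f1 were lower, and Sall4 and Utf1 were lower by a smaller margin. Nanog averaged 62.7 ± 35.4 RPKM in PGC and 12.2 ± 14.2 RPKM in epiblast (SD, n = 12 and 6), a log2 fold change of 2.71 ± 0.33 (SE, limma adjusted p = 6.86e-06). Sox2 averaged 101 ± 51.9 RPKM in PGC and 32.3 ± 13.1 RPKM in epiblast (log2 fold change 1.51 ± 0.14, limma adjusted p = 5.23e-07). Lin28a fell 5.09-fold, and none of its 12 PGC values reached the lowest epiblast value, 177 RPKM at most in PGC against at least 356 RPKM in epiblast (log2 fold change -2.51 ± 0.08). In bulk libraries, fewer cells that express a gene and less RNA per cell cannot be told apart.

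The overlap of the 2 sides shows how far such averages hide the stages. Sall4 averaged 160 ± 65.0 RPKM in PGC and 259 ± 39.9 RPKM in epiblast (log2 fold change -0.77 ± 0.13, limma adjusted p = 2e-04). Utf1 averaged 1125 ± 648 RPKM in PGC and 1395 ± 219 RPKM in epiblast (log2 fold change -0.61 ± 0.07, limma adjusted p = 2.93e-06). With PGC and epiblast as 2 plain groups its adjusted p was 0.253 (limma), a two-sided exact permutation test over the 18 libraries gave p = 0.21, and the log2 fold change of Utf1 was -0.27 both without the E9.5 libraries (limma adjusted p = 0.00473) and under quantile normalization (0.000634), and -1.12 without those of E10.5 and E11.5. The same exact test gave p = 0.000916 for Pou5f1, 0.000377 for Nanog, 0.00119 for Sox2, 0.00533 for Sall4 and 5.39e-05 for Lin28a, the smallest value that 18564 splits can give. These exact p-values are not adjusted. The test treats the 18 libraries as interchangeable, although they come in stage groups of replicates, so the values can be too small.

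**Figure D2:**
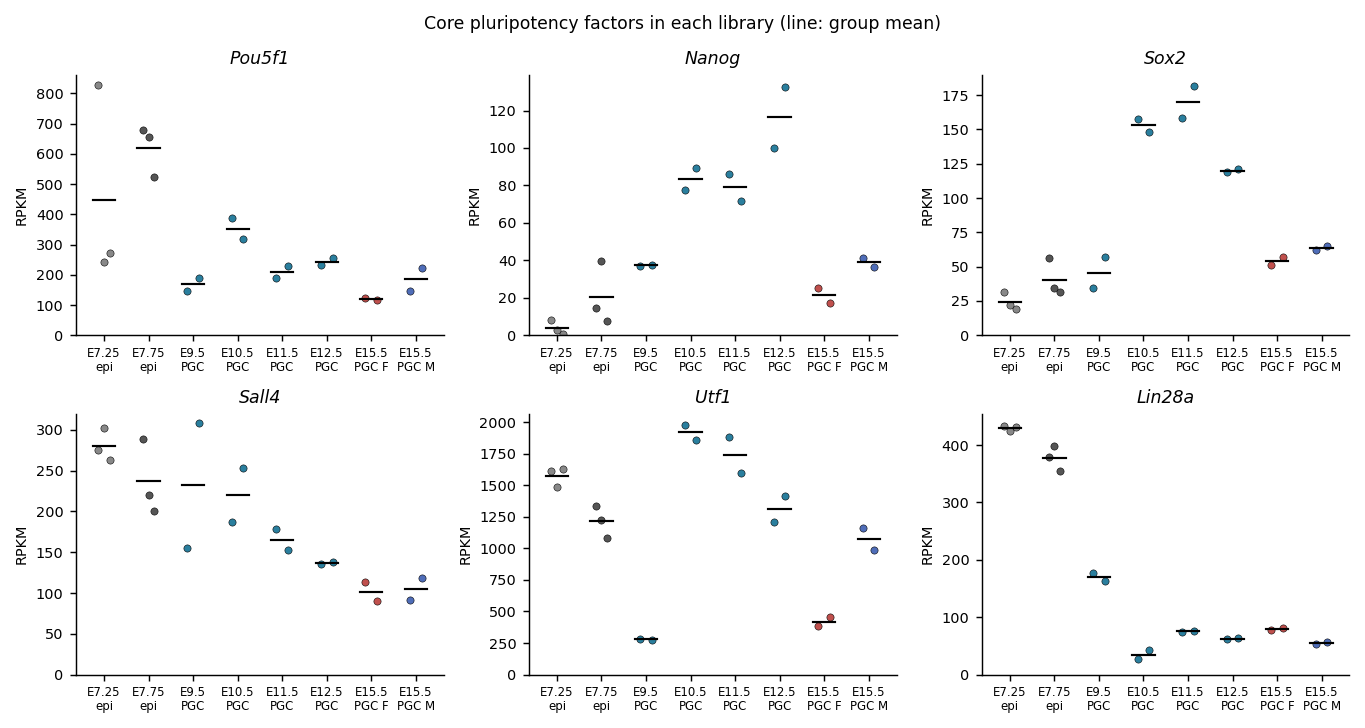
RPKM of the 6 genes in each library, by group from E7.25 epiblast to E15.5 PGC (F female, M male); points are libraries and lines group means. Nanog and Sox2 peak at E12.5 and E11.5, Utf1 is lowest at E9.5 and next lowest in female E15.5 PGC, and Lin28a drops to its lowest at E10.5.

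Pou5f1, the gene of OCT4, was highest in epiblast and stayed above 100 RPKM in every germ cell library, between 115 and 388 RPKM. At E7.25 it was 827 and 243 RPKM in male replicates 1 and 2 and 271 RPKM in the female library, and at E7.75 it was 680 and 656 RPKM in the males and 523 RPKM in the female. The E7.25 libraries thus differed more than those of any other group. In PGC the 2 libraries held 147 and 189 RPKM at E9.5, 388 and 317 at E10.5, 189 and 227 at E11.5 and 234 and 254 RPKM at E12.5. At E15.5 Pou5f1 was 123 and 115 RPKM in female and 146 and 224 RPKM in male PGC. Only the step from epiblast to E9.5 PGC passed the test, as a 3.68-fold fall with no overlap of values (log2 fold change -1.88 ± 0.38, limma adjusted p = 0.00213). The E10.5 libraries both lay above both E9.5 libraries, but that difference missed the threshold (1.07 ± 0.42, limma adjusted p = 0.0689).

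Ordered by mean, Pou5f1 ran E7.75 epiblast, E7.25 epiblast, E10.5, E12.5, E11.5, male E15.5, E9.5 and female E15.5 PGC. Values of neighbours overlapped between both epiblast days, E7.25 epiblast and E10.5, E11.5 and male E15.5, and male E15.5 and E9.5. Female E15.5 PGC stood below all other groups, yet neither their difference from E12.5 (-1.03 ± 0.42, limma adjusted p = 0.107) nor that from male PGC (-0.60 ± 0.42, limma adjusted p = 0.446) passed. The first of these passed when the 4 libraries compared were fitted alone (limma adjusted p = 0.0376).

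Nanog, the homeodomain factor gene, was low and uneven in epiblast and highest in E12.5 PGC. At E7.25 it was 8.33 and 2.62 RPKM in the males and 0.793 RPKM in the female, and at E7.75 it was 14.7 and 39.6 RPKM in the males and 7.48 RPKM in the female. PGC had 37.0 and 37.6 RPKM at E9.5, 77.5 and 89.3 at E10.5, 86.2 and 71.7 at E11.5 and 100 and 133 RPKM at E12.5. Group means thus spanned 29.7-fold, the largest ratio among the 6 genes. At E15.5 Nanog was back at 25.1 and 17.4 RPKM in female and 41.3 and 36.6 RPKM in male PGC, within the range of E7.75 epiblast for all but 1 library.

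None of the single steps up to E12.5 passed for Nanog, whose shared spread gave an SE of 0.65 for 2 against 2 libraries. E9.5 PGC exceeded E7.75 epiblast by 1.13 ± 0.60 (limma adjusted p = 0.185), by 1.73 (limma adjusted p = 0.0342) without E7.75 male replicate 2 and by 0.60 without the E7.75 female library. E12.5 PGC exceeded E9.5 PGC by 1.60 ± 0.65 (limma adjusted p = 0.0956), and in a fit of these 4 libraries alone it passed (limma adjusted p = 0.0412). The means ran E12.5, E10.5, E11.5, male E15.5, E9.5, female E15.5, E7.75 epiblast and E7.25 epiblast. E10.5 overlapped E11.5, male E15.5 overlapped E9.5, and female E15.5 overlapped E7.75 epiblast, which overlapped E7.25.

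Sox2, the HMG-box partner of OCT4, stayed near its epiblast level at E9.5 and rose at E10.5. Epiblast values were 31.8 and 22.0 RPKM in the males and 18.9 RPKM in the female at E7.25, and 56.0, 34.2 and 31.2 RPKM in the same order at E7.75. The PGC libraries had 34.4 and 56.7 RPKM at E9.5, 157 and 148 at E10.5, 158 and 182 at E11.5 and 119 and 121 RPKM at E12.5. Every library of E10.5 to E12.5 therefore lay above the highest epiblast or E9.5 value. Against E9.5, E10.5 PGC were 3.36-fold higher (log2 fold change 1.77 ± 0.28, limma adjusted p = 0.000375), and E12.5 PGC were 2.63-fold higher (1.42 ± 0.28, limma adjusted p = 0.00219). Neural markers, which often go with Sox2, summed over 8 genes to 0 to 4.62 RPKM from E10.5 to E12.5, led by Tubb3. Sox1, Sox3 and Nes had no line and are not in that sum. The E10.5 and E11.5 libraries were shallow by the estimate above, so low values there are less precise. The part of neural cells in the Sox2 values was not tested.

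At E15.5 Sox2 had come down to 51.3 and 56.98 RPKM in female and 62.1 and 64.7 RPKM in male PGC. Its means ran E11.5, E10.5, E12.5, male E15.5, female E15.5, E9.5, E7.75 epiblast and E7.25 epiblast, and values overlapped only among the last 4 of these groups, each with the next. Female E15.5 PGC were 2.22-fold below E12.5 PGC (-1.14 ± 0.28, limma adjusted p = 0.0118). Male E15.5 PGC were 1.89-fold below, which missed the threshold (-0.91 ± 0.28, limma adjusted p = 0.0612) and passed under quantile normalization (limma adjusted p = 0.0348) and with the 4 libraries fitted alone (0.0422). The female and male values did not overlap, but their difference was small (-0.23 ± 0.28, limma adjusted p = 0.723).

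Sall4, the zinc finger factor gene, was the steadiest of the 6, with group means that spanned 2.76-fold. Epiblast had 276 and 303 RPKM in the males and 263 RPKM in the female at E7.25, and 289, 221 and 201 RPKM in the same order at E7.75. Germ cells had 155 and 309 RPKM at E9.5, 187 and 254 at E10.5, 178 and 153 at E11.5 and 135 and 138 RPKM at E12.5, then 113 and 90.3 RPKM in female and 91.8 and 119 RPKM in male PGC at E15.5. The E9.5 replicates differed 1.99-fold, and their values cover the whole epiblast range. No step between neighbouring stages passed for Sall4, although the means went down at each step from E7.25 epiblast to E12.5 and neighbours from E10.5 to male E15.5 PGC did not overlap. E12.5 PGC lay below E9.5 PGC by 0.68 ± 0.27 (limma adjusted p = 0.0849), and the difference was -1.17 without E9.5 replicate 1 (limma adjusted p = 0.00499) and -0.18 without E9.5 replicate 2. The E9.5 against E7.75 difference (-0.09 ± 0.24) and the E10.5 against E9.5 difference (-0.01 ± 0.27) changed sign under other scalings.

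Utf1, the gene of a chromatin protein, had the highest RPKM of the 6 in every library but E9.5 replicate 2, where Sall4 was higher, and was lowest at E9.5. It stood at 1613 and 1485 RPKM in E7.25 males, 1626 RPKM in the E7.25 female, 1340 and 1226 RPKM in E7.75 males and 1080 RPKM in the E7.75 female. At E9.5 it was 283 and 274 RPKM, and at E10.5 it was 1982 and 1861 RPKM, of which the first was the highest of all 18 libraries. It then stood at 1884 and 1599 RPKM at E11.5 and 1209 and 1418 RPKM at E12.5. Among the tested genes the mean log2 level of Utf1 ranked 57 at E7.75, 388 at E9.5 and 29 at E10.5. E9.5 PGC were 4.36-fold below E7.75 epiblast (-2.12 ± 0.12, limma adjusted p = 5.35e-08), and E10.5 PGC were 6.90-fold above E9.5 PGC (2.78 ± 0.135, limma adjusted p = 4e-08).

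Between the sexes of E15.5 PGC, Utf1 alone of the 6 passed the test. It was 383 and 458 RPKM in female and 1162 and 986 RPKM in male PGC, a 2.55-fold lower level in females (log2 fold change -1.35 ± 0.135, limma adjusted p = 3.29e-05). Against E12.5, females were 3.12-fold lower (-1.64 ± 0.135, limma adjusted p = 3.18e-06), while males differed by -0.29 ± 0.135 (limma adjusted p = 0.233). The means ran E10.5, E11.5, E7.25 epiblast, E12.5, E7.75 epiblast, male E15.5, female E15.5 and E9.5, with no overlap between neighbours from male E15.5 downwards and between E7.25 epiblast and E12.5.

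Lin28a, the gene of the let-7 binding protein, fell in successive steps and was higher again at E11.5. It was 434 and 424 RPKM in the males and 432 RPKM in the female at E7.25, and 380, 398 and 356 RPKM in the same order at E7.75. PGC had 177 and 163 RPKM at E9.5, 26.8 and 42.4 at E10.5, 75.0 and 75.4 at E11.5, 61.1 and 63.0 at E12.5, and 77.0 and 81.7 RPKM in female and 53.7 and 56.6 RPKM in male PGC at E15.5. No 2 groups of Lin28a that are neighbours in the order of means overlapped. E9.5 PGC were 2.22-fold below E7.75 epiblast (-1.15 ± 0.14, limma adjusted p = 4.61e-05), E10.5 PGC were 4.91-fold below E9.5 PGC (-2.30 ± 0.16, limma adjusted p = 7.92e-07) and E11.5 PGC were 2.17-fold above E10.5 PGC (1.13 ± 0.16, limma adjusted p = 0.00122). The last 2 steps involve the shallow libraries of E10.5 and E11.5, and the part of depth in them was not tested. Female E15.5 PGC were 1.44-fold above males (0.52 ± 0.16, limma adjusted p = 0.0521), a difference that passed under quantile normalization (limma adjusted p = 0.011) and under median-of-ratios scaling (0.0396).

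**Figure D3:**
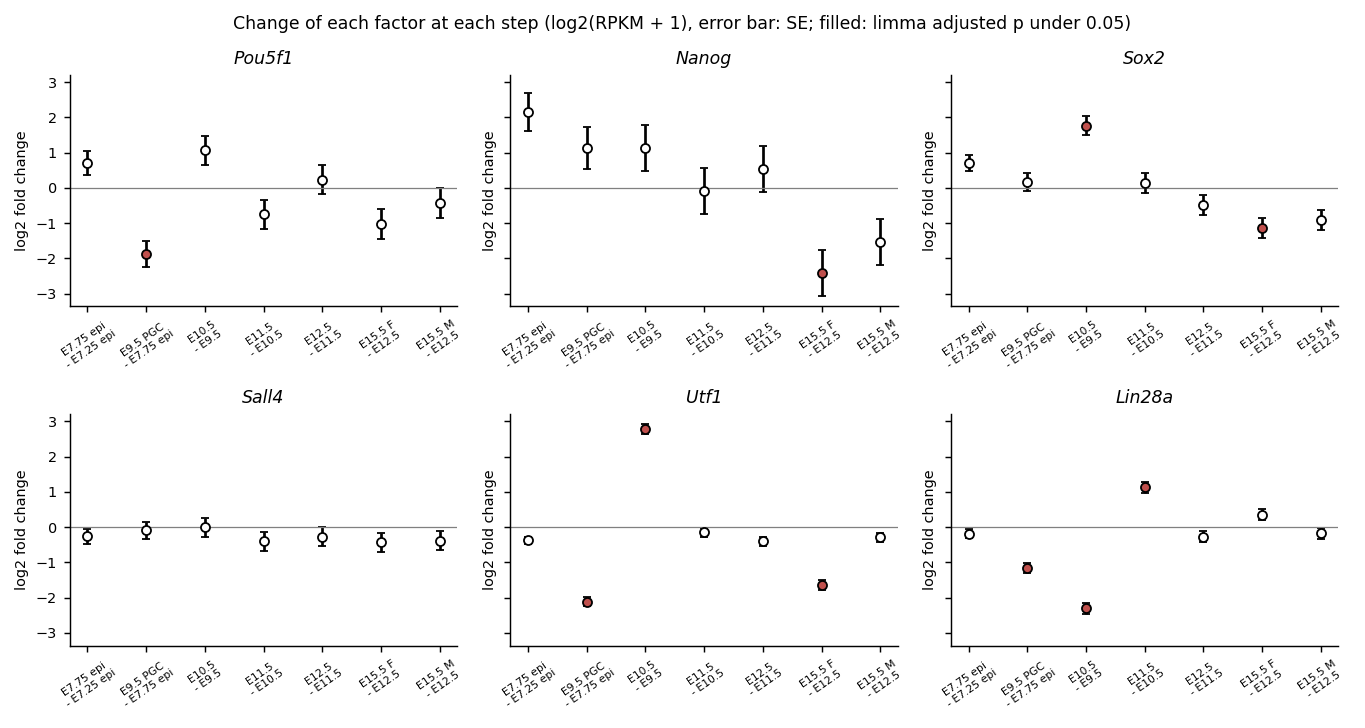
Log2 fold change of each gene at 7 steps, on the log2(RPKM + 1) scale with its SE (epi is epiblast, F female, M male; each label gives the later stage minus the earlier); filled points passed at an adjusted p under 0.05 (limma). Utf1 falls by 2.12 at E9.5 and rises by 2.78 at E10.5, Lin28a falls at both, and Sall4 passes at no step.

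Read by stage, at most 3 of the 6 genes passed at any step. E9.5 PGC against E7.75 epiblast had 0 higher and 3 lower (Pou5f1, Utf1 and Lin28a), where 27.6% of tested genes passed. E10.5 against E9.5 PGC had 2 higher (Sox2 and Utf1) and 1 lower (Lin28a), against 29.9% of tested genes, and in a fit of these 4 libraries alone 0 of the 6 and 0 of all genes passed (limma adjusted p = 0.06 for Utf1, 0.0803 for Lin28a and 0.106 for Sox2). E11.5 against E10.5 PGC had 1 higher, Lin28a, against 7.19% of tested genes, and it did not pass in a fit of those 4 libraries alone (limma adjusted p = 0.254), where 0.377% of all tested genes passed. E12.5 against E11.5 PGC had 0 that passed by limma, against 7.21% of tested genes. At an unadjusted p under 0.05 there was 1, and the share of all tested genes at that level was not computed. Over the whole span from E9.5 to E12.5, Sox2 and Utf1 were higher and Lin28a was lower at E12.5, so that 3 of 6 passed where 23.2% of tested genes did. Sox2 did not pass there when the 4 libraries were fitted alone (limma adjusted p = 0.0865). The mesoderm, blood and gut markers described above were highest at E9.5, and their part in the E9.5 values of Utf1, Pou5f1 and Sall4 was not tested.

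In female E15.5 PGC against E12.5 PGC, 0 of the 6 were higher and 3 lower (Nanog, Sox2 and Utf1), where 18.4% of tested genes passed. Lin28a was higher there under quantile normalization alone among the scalings tried (log2 fold change 0.41, limma adjusted p = 0.0473). The Nanog fall (5.48-fold, -2.41 ± 0.65, limma adjusted p = 0.0197) missed the threshold without E12.5 replicate 1 (0.0667), E12.5 replicate 2 (0.124), female replicate 1 (0.0506) or female replicate 2 (0.123), with a pseudocount of 0.1 (0.0524) and without the filter on low values (0.0882). The Sox2 fall missed it without E12.5 replicate 1 (limma adjusted p = 0.0617), E12.5 replicate 2 (0.0698) or female replicate 1 (0.0659), so that 1 or 2 of the 6 passed in these leave-outs. Utf1 passed in all of them. In male E15.5 PGC against the same E12.5 libraries 0 of 6 passed by limma, where 8.73% of tested genes passed at the same adjusted threshold. At an unadjusted p under 0.05 there were 3 (Nanog, Sox2 and Utf1), and the share of all tested genes at that level was not computed. All 6 had lower means in the males than at E12.5, with log2 fold changes of -1.54 to -0.17 and no overlap of values. With 2 libraries on each side such a lack of overlap is weak, and its share over all tested genes was not computed. Female against male E15.5 PGC had 0 higher and 1 lower, Utf1, against 9.68% of tested genes, and with the 4 libraries alone 0 of the 6 and 0 of all tested genes passed (limma adjusted p = 0.103 for Utf1). Markers of gonadal somatic cells, 12 genes with Foxl2 listed at 0 in both sexes, summed to 18.2 to 36.8 RPKM in females and 35.9 to 36.0 RPKM in males, and germ cell markers to 1955 to 1971 RPKM in females and 1919 to 1940 RPKM in males. Other lists differed between the sexes without overlap. Primed epiblast markers summed to 16.3 to 23.2 RPKM in females and 155 to 166 RPKM in males, of which Lefty2 made up 107 to 114 RPKM. Extraembryonic ectoderm markers summed to 41.1 to 45.8 RPKM in females, led by Hand1, and 4.49 to 6.06 RPKM in males. Endoderm and gut markers summed to 21.7 to 21.9 RPKM in females and 8.32 to 9.80 RPKM in males, and neural markers to 9.46 to 9.55 RPKM in females and 4.37 to 5.13 RPKM in males. Their part in the sex difference of Utf1 was not tested.

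Within epiblast the 6 genes were compared between the days and between the sexes. Between E7.75 and E7.25, 0 of 6 passed by limma, where 0.269% of tested genes passed at the same adjusted threshold. At an unadjusted p under 0.05 there were 3 (Nanog and Sox2 higher, Utf1 lower). The share of all tested genes at that unadjusted level was not computed. Male replicate 1 at E7.25 held the highest Pou5f1, Nanog and Sox2 of its day, at 827, 8.33 and 31.8 RPKM. Without it, Pou5f1 (log2 fold change 1.26, limma adjusted p = 0.0116) and Nanog (2.79, limma adjusted p = 0.0294) were higher at E7.75, so that 2 of 6 passed. Other leave-outs gave smaller differences, down to 0.38 for Pou5f1 without E7.25 male replicate 2 and 1.55 for Nanog without E7.75 male replicate 2, and neither gene passed in them. Between female and male epiblast, with 1 female library a day, 0 of 6 passed by limma, where 0.0605% of tested genes passed at the same adjusted threshold. Nanog alone had an unadjusted p under 0.05, a level for which the share of all tested genes was not computed. Nanog averaged 4.14 ± 4.73 RPKM in the 2 female and 16.3 ± 16.3 RPKM in the 4 male epiblast libraries (log2 fold change -1.63 ± 0.39, limma adjusted p = 0.568), and the female library was the lowest on each day.

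The levels were also set against each other within each library. Within each library, the RPKM of Sox2 was 0.233 to 0.835 of that of Pou5f1 in PGC and 0.0384 to 0.0904 of it in epiblast. For Nanog the ratio to Pou5f1 was 0.151 to 0.522 in PGC and 0.00293 to 0.0603 in epiblast. Both ratios therefore separated the 12 PGC from the 6 epiblast libraries without overlap, although each of these 3 genes alone overlapped. Each sets a gene that was higher in PGC over one that was lower, which widens the gap. The other ratios taken did overlap: Sall4 to Pou5f1 (0.481 to 1.63 in PGC, 0.334 to 1.25 in epiblast), Utf1 to Pou5f1 (1.45 to 9.96, 1.87 to 6.12) and Sox2 to Nanog (0.912 to 3.28, 0.865 to 23.8). Other pairs of genes were not examined, so the share of all pairs that separate the 2 sides was not computed. Between PGC and epiblast 58.5% of all tested genes passed. The Sox2 ratio was highest at E11.5, 0.8 to 0.835, where Sox2 approached the level of Pou5f1. The Nanog ratio was highest at E12.5, 0.429 to 0.522.

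**Figure D4:**
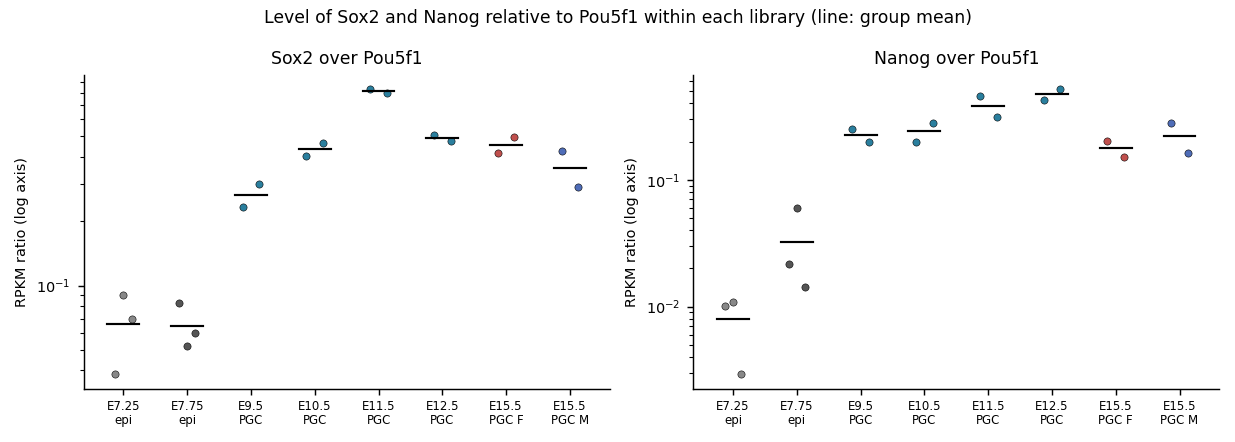
Ratio of Sox2 RPKM (left) and Nanog RPKM (right) to Pou5f1 RPKM in each library, on a log axis, by group (epi is epiblast, F female, M male); points are libraries and lines group means. PGC ratios of Sox2 lie between 0.233 and 0.835 and those of epiblast between 0.0384 and 0.0904.

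Across the 18 libraries, the log2 levels of Nanog and Sox2 correlated at r = 0.866 with each other and at r = -0.773 and -0.829 with Lin28a, and Pou5f1 correlated with Sall4 at r = 0.641. These values describe libraries that share stages. By the same measure over 11088 genes, the genes most like each factor were as follows. They were picked for likeness in these same libraries, so their levels by stage are not a separate result. Sox2 was followed by Six6 (r = 0.939), a homeobox gene of eye and pituitary that was listed at 0 in epiblast and averaged 8.08, 10.6 and 8.15 RPKM at E10.5, E11.5 and E12.5, and by Mgmt (0.928), a DNA repair enzyme gene. Nanog was followed by Camkv (0.923), Lck (0.911), a Src-family kinase gene best known from T cells, and As3mt (0.905), an arsenic methyltransferase gene. Lck averaged 27.0 and 27.9 RPKM at E10.5 and E11.5 and 0.308 RPKM at E7.25.

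Utf1 was most like Glrx5 (r = 0.938), which serves iron-sulphur clusters in mitochondria, Tcf7l1 (0.881), a repressor at WNT targets, and Abcf1 (0.876). Tcf7l1, picked by this likeness, had means of 53.0 RPKM at E7.75, 11.3 at E9.5 and 44.7 RPKM at E10.5. Lin28a was most like Ppap2c (0.974), Cenpq (0.973), a centromere protein gene, and Actr2 (0.965), an actin-branching gene. Ppap2c averaged 49.6 RPKM at E7.75, 6.14 at E9.5 and 0.197 RPKM at E10.5. Sall4 was most like Bsg (0.939), the partner of lactate transporters, Eef2 (0.933), the translation elongation factor, and Tmem132a (0.923). Pou5f1 was most like Mt-co1 (0.857), a mitochondrially encoded subunit of cytochrome oxidase, Glul (0.857), glutamine synthetase, and LOC688459 (0.846).

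Among family relatives of the factors, Sox15 had the largest rise that passed between PGC and epiblast. Sox15, a SOX gene that can take the place of Sox2 with OCT4 in mouse stem cells, averaged 36.3 ± 18.8 RPKM in PGC and 3.49 ± 1.90 RPKM in epiblast (log2 fold change 2.89 ± 0.23, limma adjusted p = 1.2e-07). It rose at E9.5 over E7.75 epiblast (2.16 ± 0.43, limma adjusted p = 0.00174) and again at E10.5 (1.67 ± 0.47, limma adjusted p = 0.0147). At E15.5 Sox15 was 5.53 to 8.74 RPKM in female and 47.3 to 50.6 RPKM in male PGC (-2.65 ± 0.47, limma adjusted p = 0.00277), the same direction of sex difference as Utf1. For E10.5 against E9.5 and between the E15.5 sexes, 0 of all tested genes, Sox15 included, passed with only the libraries compared. Sox17, a specifier of human germ cells and also an endoderm marker, averaged 12.3 ± 13.2 RPKM in PGC and 1.80 ± 1.97 RPKM in epiblast (1.89 ± 0.33, limma adjusted p = 0.000215). That mean does not hold at every stage. Sox17 was 10.3 to 19.7 RPKM at E10.5, but 3.28 to 4.33 RPKM in female and 0.679 to 2.17 RPKM in male E15.5 PGC, within the 0.418 to 5.13 RPKM of E7.25 epiblast. Sall2 fell by 4.50 ± 0.18 on the log2 scale, to 2.27 ± 2.21 RPKM in PGC, against 59.9 ± 8.41 RPKM in epiblast, and Sox11 fell by 0.87 ± 0.15. Sall1 and Lin28b, relatives of Sall4 and Lin28a, passed in none of the 11 comparisons, with group means of 8.06 to 14.8 RPKM for Sall1 and 4.25 to 14.9 RPKM for Lin28b. Sox3 and Pou3f1 were not analysed here. Of 22 listed relatives 17 had a line and 12 were tested, of which 3 rose, 3 fell and 6 did not pass between PGC and epiblast, where 58.5% of all tested genes passed, with a median log2 fold change of -0.16 against 0.09 for all tested genes.

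**Figure D5:**
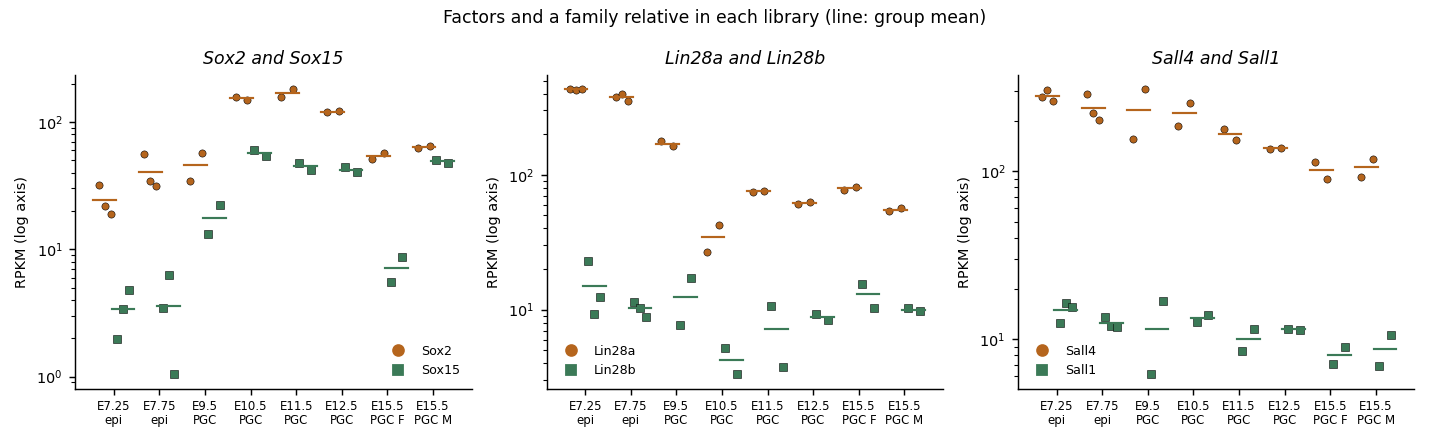
RPKM on a log axis of Sox2 with Sox15, Lin28a with Lin28b and Sall4 with Sall1 in each library, by group (epi is epiblast, F female, M male); points are libraries and lines group means. Sox15 is 5.53 to 8.74 RPKM in female and 47.3 to 50.6 RPKM in male E15.5 PGC, whereas Lin28b and Sall1 stay under 25 RPKM throughout.

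Of 29 tested partners and chromatin cofactors of the factors, 8 rose, 10 fell and 11 did not pass between PGC and epiblast, a share close to the 58.5% of all tested genes that passed (median log2 fold change -0.16 against 0.09). Nr0b1, the gene of DAX1, an OCT4 partner, was listed at 0 in every epiblast library and averaged 6.47 ± 7.73 RPKM in PGC (1.94 ± 0.19, limma adjusted p = 1.05e-06). Mta3, a subunit of the NuRD deacetylase complex, rose to 99.7 ± 36.2 RPKM in PGC, against 26.0 ± 3.80 RPKM in epiblast. L1td1, an RNA-binding protein gene of stem cells, fell to 100 ± 60.4 RPKM in PGC, against 341 ± 21.7 RPKM in epiblast (-2.10 ± 0.10, limma adjusted p = 4.46e-10), and Arid1a, a chromatin remodelling subunit, fell by 1.22 ± 0.13 on the log2 scale. At E12.5 against E9.5, 9 of these 29 rose and 4 fell, where 23.2% of all tested genes passed (median 0.37 against 0).

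Of 19 tested targets of OCT4, SOX2 and NANOG, 6 rose, 9 fell and 4 did not pass between PGC and epiblast, where 58.5% of all tested genes passed (median -0.35 against 0.09). Klf2, a factor of the naive state, rose to 21.7 ± 26.0 RPKM in PGC, against 1.05 ± 1.10 RPKM in epiblast (2.87 ± 0.34, limma adjusted p = 5.58e-06), and Esrrb, an orphan nuclear receptor gene, rose by 2.11 ± 0.21. Tdgf1, the gene of the NODAL co-receptor and also in the primed epiblast list, fell by 6.57 ± 0.365 and Dppa4, a chromatin protein gene, fell by 2.58 ± 0.18. At E9.5 against E7.75 epiblast 3 of the 19 rose and 7 fell (median -0.17 against 0.04), where 27.6% of all tested genes passed. At E10.5 against E9.5 PGC, where Sox2 and Utf1 rose, 1 rose and 4 fell (-0.13 against -0.16), where 29.9% passed. At E12.5 against E9.5 PGC 8 rose and 2 fell (0.56 against 0), where 23.2% passed. In E15.5 PGC against E12.5, 1 rose and 9 fell in females (-0.61 against 0), where 18.4% passed, and 0 rose and 5 fell in males (-0.60 against 0), where 8.73% passed. These comparisons share stages, and the counts were not tested against each other.

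The list around LIN28 and let-7 holds proteins that process let-7 and messengers that let-7 is known to repress. Of 25 tested genes, 4 rose, 11 fell and 10 did not pass between PGC and epiblast, a share close to the 58.5% of all tested genes that passed (median -0.25 against 0.09). Hmga1, an architectural chromatin protein gene, fell to 358 ± 222 RPKM in PGC, against 1804 ± 161 RPKM in epiblast (-2.59 ± 0.07, limma adjusted p = 3.18e-12), and Ccnd1, cyclin D1, fell by 4.25 ± 0.14. Prdm1, the germ cell repressor BLIMP1 and a let-7 target in the mouse, rose to 23.8 ± 7.35 RPKM in PGC, against 0.0806 ± 0.0989 RPKM in epiblast (4.47 ± 0.16, limma adjusted p = 2.63e-11), and Igf2bp2, an RNA-binding protein gene, rose by 2.11 ± 0.24. At E10.5 against E9.5, where Lin28a fell most, 0 of the 25 rose and 10 fell, where 29.9% of all tested genes passed (median -0.85 against -0.16). Of all tested genes 1711 were higher and 2732 lower at that step, and 0 passed with these libraries fitted alone. The parts of library depth and of the markers of other cells at E9.5 were not tested. At E9.5 against E7.75 epiblast, where Lin28a also fell, 8 rose and 5 fell, where 27.6% passed (0.17 against 0.04). At E11.5 against E10.5, where Lin28a was higher, 0 rose and 2 fell, where 7.19% passed (0.15 against 0.03). In female against male E15.5 PGC 4 rose and 0 fell, where 9.68% passed (0.22 against 0), and 0 of all tested genes passed with these libraries fitted alone. The let-7 RNAs themselves were not analysed here.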

How the data were processed

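RNA was extracted with the PicoPure kit and libraries were made with SMART-Seq v4, per the labels' protocols. The values deposited by the authors are RPKM, 1 column a library. The submitters' processing notes list the build rn6 and the tools Cufflinks 2.2.1, TopHat2 2.1.0, cutadapt 1.14 and bcl2fastq 2.18.0.12, with no role or order. Annotation, multi-mapping reads and strand: not given in the sources used here, so genes with near-identical copies elsewhere in the genome are uncertain. Columns of samples outside the series numbered 0.

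Values were transformed to log2(RPKM + 1), which understates changes of low genes. Genes with at least 1 RPKM in at least 2 libraries were fitted with limma 3.58.1 (R 4.3.3, mean-variance trend) in 8 groups, or 10 for the sexes of epiblast. All libraries shared 1 spread, because most groups hold 2, with 10 or 8 residual degrees of freedom. P-values were adjusted by Benjamini-Hochberg within each of 11 comparisons over all tested genes, at 0.05. Folds are ratios of mean RPKM. Comparisons with E12.5 share its libraries, and neighbouring steps share the stage between them.

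The fit was tested on simulated data. Genes most alike were the 3 with the highest Pearson r per member, among tested genes with a group mean of at least 5 RPKM, of which 1 is not reported here. Per list, the 2 largest rises and falls that passed in PGC against epiblast, at 5 RPKM or more in the higher group, are named. For symbols with several lines the line with the highest mean was used. Of the planned relatives Sox3 and Pou3f1 were not analysed. The members, the lists and the named-gene rule were chosen with earlier results of these data known. Alternatives were a pseudocount of 0.1, no filter, 3 other scalings, only the libraries compared, the replicate block and leaving out single libraries. Figures were drawn with matplotlib 3.10.9 (Python 3.11.15).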

Additional observations from a re-analysis of the deposited data

Results flagged for a closer look

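Nanog in epiblast had 1 library far from the rest on the RPKM scale. On the log2(RPKM + 1) scale used for the fits it stood less apart, at 5.34, with the next library at 3.97 and the lowest at 0.843. The check below was run on RPKM only. Male replicate 2 of E7.75 held 39.6 RPKM, and the gap to the next library, 14.7 RPKM, was 0.642 of the whole range of the 6 epiblast libraries, above the critical value of 0.625 for 6 samples. Of 12 such checks, the highest and the lowest library for each of the 6 genes, 1 passed, and chance flags about 1 in 20 groups. The 6 libraries span both days and both sexes, so the gap also holds those differences, and their part was not tested.

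Utf1 differed between the sexes of E15.5 PGC, which is the same comparison as above and not a further result. It did not pass with the 4 libraries fitted alone (limma adjusted p = 0.103). The difference of the female and the male step, which is the female minus male difference at E15.5, was -1.35 on the log2 scale (limma adjusted p = 3.29e-05), with both female libraries under both male ones. The E12.5 libraries carry no sex label, so a female and a male step within a sex cannot be given.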

How the results depend on the processing

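Between PGC and epiblast all 6 genes passed in every alternative except 2, the fit of PGC and epiblast as 2 groups (adjusted p = 0.253) and the exact permutation test over libraries (unadjusted p = 0.21), which Utf1 did not pass. Leave-outs gave 6 of 6 there, 0 to 2 for E7.75 against E7.25 epiblast, 3 to 4 for E9.5 PGC against E7.75 epiblast, 3 for E10.5 against E9.5 and 1 for E11.5 against E10.5. They gave 0 for E12.5 against E11.5, 3 to 4 for E12.5 against E9.5, 1 to 2 for E15.5 females and 0 for males against E12.5, 1 between the E15.5 sexes and 0 between the epiblast sexes. With only the libraries compared, 0 passed for E10.5 against E9.5, for E11.5 against E10.5 and between the E15.5 sexes, and 1 (Sox2) for E15.5 males. That fit leaves 2 residual degrees of freedom. Quantile normalization gave 1 for E15.5 males, 4 for E15.5 females against E12.5 with Lin28a higher (0.41, adjusted p = 0.0473) and 2 between the E15.5 sexes, and median-of-ratios scaling also gave 2 between them. Changes of sign touched only differences that had not passed: Sall4 at E9.5 (0.10 by quantiles, 0.0599 with libraries rescaled to 1 sum, -0.588 to 0.399 in leave-outs), at E10.5 (0.0574 by median-of-ratios, -0.503 to 0.484 in leave-outs) and between the E15.5 sexes (0.0194 by quantiles, 0.00499 by 1 sum, -0.230 to 0.137 in leave-outs), Nanog at E11.5 (0.00191, 0.177, and -0.212 to 0.0492 in leave-outs), Utf1 at E11.5 (0.233 and 0.115) and Sox2 at E9.5 (-0.182 to 0.523 in leave-outs). The cause was not tested. Rescaling to 1 sum moved the median of all tested genes by 0.13 at E9.5, -0.28 at E10.5 and 0.21 at E11.5, and quantiles moved it by 0.185 at E10.5. The replicate numbers did not pair the libraries (correlation of deviations -0.133 to 0.058 over 15 pairs of groups), and with the replicate block the counts of the 6 genes that passed were 6, 0, 3, 3, 1, 0, 3, 0, 3, 1 and 0 in the 11 comparisons, as without it. Without the E9.5 libraries, or without those of E10.5 and E11.5 (both chosen after seeing the data), 6 of 6 passed between PGC and epiblast. Leaving out a female epiblast library gave no value for the sexes, since that day then has none. The low estimated depth of E10.5 and E11.5 limits low genes most.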
